A study of Homo sapiens with 28 samples.

Results

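The genes described here are 38 genes of DNA replication and nucleotide supply, followed in a Ewing sarcoma line after knockdown of FLI1 or of CHD4. They were listed by function and not by measured values, but earlier results of these data were known when they were chosen. The list holds 6 genes of the MCM helicase, 5 of origin licensing, 6 of helicase activation, 6 of the clamp and its loader, 7 of the polymerases and primase, 2 of Okazaki fragment processing, 4 of nucleotide supply and 2 regulators. Each symbol had 1 row among the 35488 genes of the deposited table, of which 17659 are protein-coding, and all 38 passed the filter on low values, a mean of at least 10 normalised counts over the 28 libraries. RNA was measured by total RNA sequencing in the established cell line SK-N-MC, which carries the fusion of EWSR1 with FLI1, the transcription factor that defines this tumour. The cells held a hairpin that doxycycline switches on. Every group, controls included, received 100 ng/ml doxycycline for 24 or 48 h. At each time there were 3 libraries with shFLI1, a hairpin against FLI1, 3 with shCHD4#1 and 3 with shCHD4#2, hairpins against CHD4, and 5 with shScramble, the control hairpin. CHD4 is a chromatin remodelling ATPase of the NuRD complex. The labels call the libraries biological replicates, but nothing says that they came from separate cultures, so p-values measure the spread between these libraries, which may be technical. For the shScramble libraries of 48 h one label, that of the genotype, names a CHD4 knockdown, which their other labels do not. CHD4 in them averaged 11605 normalised counts, against 11550.1 in those of 24 h, and they are used as controls.

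In G1 phase the origin recognition complex, CDC6 and CDT1 load the MCM helicase onto DNA, and geminin blocks reloading once S phase has begun. CDC45, the GINS complex and MCM10 then activate the helicase, DNA polymerase alpha with primase starts each strand, and PCNA, placed by the RFC loader, tethers the polymerases that extend it. Ribonucleotide reductase, thymidylate synthase and thymidine kinase supply the deoxyribonucleotides. Many of these genes are transcribed at the entry to S phase under E2F factors, so their RNA also follows the share of cycling cells in a culture. Ewing sarcoma cells are known to depend on the fusion protein for proliferation.

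Promoter sequences were taken from RefSeq (GRCh38.p14), as windows of 250 bases before to 50 after a gene's start, and 35 of the 38 genes had at least 1 window. The motif searched for E2F was TTTCCCGC, TTTCGCGC, TTTGCCGC or TTTGGCGC on either strand. Of the 35 genes, 20 held a match (57.1%), against 1090 of 27305 genes with a window (3.99%). Those 27305 genes were taken without a filter on expression or gene type, so these shares do not compare like genes. A CCAAT box, CCAAT on either strand, lay in 21 of the 35 (60.0%), against 39.7% of all genes. The repeat GGAAGGAA, the kind of element that the fusion protein is known to bind, lay in 1 of the 35, that of PRIM2 (2.86%), against 4.50% of all genes. The motif of cell cycle homology regions, TTTGAA or TTCGAA on either strand, lay in 2 of the 35 (5.71%), against 19.5% of all genes. Matches of different motifs may overlap, and a match is only a match of letters. The 150 bases that end just before the start are shown for 7 genes that the results below turn on, 5′ to 3′ on the gene's strand. For E2F2 (chr1:23531234-23531383, minus strand), DTL (chr1:212035598-212035747, plus strand), MCM7 (chr7:100101398-100101547, minus strand) and PCNA (chr20:5126623-5126772, minus strand) the capitals mark the E2F motif, as examples of genes that hold it. For RRM2 (chr2:10122589-10122738, plus strand), MCM10 (chr10:13161408-13161557, plus strand) and ORC1 (chr1:52404424-52404573, minus strand), which hold no E2F motif in these 150 bases, the capitals mark CCAAT boxes.
E2F2: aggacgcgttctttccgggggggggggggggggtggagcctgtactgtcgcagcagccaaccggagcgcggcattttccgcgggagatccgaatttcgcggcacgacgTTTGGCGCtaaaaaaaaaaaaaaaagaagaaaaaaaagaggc
DTL: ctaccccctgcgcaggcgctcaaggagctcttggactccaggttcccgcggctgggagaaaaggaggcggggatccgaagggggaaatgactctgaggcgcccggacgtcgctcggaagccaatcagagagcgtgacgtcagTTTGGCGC
MCM7: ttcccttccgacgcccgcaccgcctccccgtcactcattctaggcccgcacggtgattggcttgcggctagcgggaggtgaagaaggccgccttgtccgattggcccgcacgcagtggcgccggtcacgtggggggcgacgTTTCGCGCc
PCNA: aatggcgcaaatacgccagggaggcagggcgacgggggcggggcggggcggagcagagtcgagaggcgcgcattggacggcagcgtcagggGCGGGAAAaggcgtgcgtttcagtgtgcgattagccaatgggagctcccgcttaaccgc
RRM2: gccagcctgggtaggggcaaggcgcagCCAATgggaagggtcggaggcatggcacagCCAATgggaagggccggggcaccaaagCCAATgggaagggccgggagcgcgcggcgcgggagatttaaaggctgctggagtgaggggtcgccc
MCM10: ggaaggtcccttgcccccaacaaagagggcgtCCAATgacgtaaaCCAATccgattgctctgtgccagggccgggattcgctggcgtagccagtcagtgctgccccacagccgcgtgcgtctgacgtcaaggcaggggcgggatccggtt
ORC1: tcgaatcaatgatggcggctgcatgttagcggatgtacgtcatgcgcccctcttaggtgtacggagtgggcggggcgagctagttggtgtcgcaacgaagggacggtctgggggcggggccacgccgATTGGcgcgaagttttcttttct

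The libraries held 46102707 to 64775442 reads. FLI1 fell with shFLI1 at 24 h (log2 fold change -1.16, adjusted p = 3.58e-07) and at 48 h (-1.17, adjusted p = 6.15e-07), and CHD4 fell with shCHD4#1 (-1.95 and -1.86, adjusted p = 4.74e-07 and 9.38e-08) and with shCHD4#2 (-1.91 and -2.07, adjusted p = 5.76e-07 and 2.57e-08). FLI1 was also lower with shCHD4#2 at 48 h (-0.34, adjusted p = 0.0291). EWSR1 was lower with shFLI1 at 48 h (-0.35, adjusted p = 0.00768) and with shCHD4#2 at 48 h (-0.39, adjusted p = 0.00873). Markers of the line were present in shScramble at 48 h, with 6852 normalised counts of CD99, 2849 of NKX2-2 and 1261 of NR0B1. Of 8 markers of other cells, MYOD1 had no row, CD3E, PECAM1, VWF, EPCAM and ALB averaged at most 19.7 in any group, and KRT8 was present in every group. PTPRC, a leukocyte marker, averaged 312.8 ± 31.8 and 172.8 ± 47.8 normalised counts with shFLI1 at 24 and 48 h (SD, n = 3), against 47.1 ± 10.5 and 43.8 ± 3.49 with shScramble (n = 5). The sum of the 7 markers with a row was 468.0 to 763.2 with shFLI1 at 48 h, against 479.5 to 1999.8 with shScramble. Without KRT8, the sum of the other 6, which PTPRC led, was 280.2 to 350.5 with shFLI1 at 24 h, against 37.1 to 69.6 with shScramble, and 138.0 to 243.0 at 48 h, against 48.5 to 62.2. These sums did not overlap at either time, and their part in the results with shFLI1 was not tested. Among shScramble and the CHD4 hairpins, the 12 libraries numbered 1 or 2 stood apart from the other 16, with 0.313 to 0.388% of reads on processed pseudogenes against 0.223 to 0.283%. All shFLI1 libraries are among the 16, and the labels name no difference. Counts of called genes are therefore also given with this division as a term in the fit.

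Levels in shScramble differed widely between the genes. Per kilobase of exon, PCNA had the highest level, 10234 normalised counts, followed by MCM3 with 5528, MCM7 with 5409.9 and MCM2 with 4474. Both subunits of ribonucleotide reductase stood close together, RRM1 at 2779 and RRM2 at 2727. The lowest were POLA2 with 298, GINS4 with 222 and GINS3 with 178. Within the controls the levels held over time: no gene of the 38 passed the test between shScramble at 48 h and at 24 h with limma, none had an unadjusted p under 0.05, and 0% of all genes passed in either direction.

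With FLI1 knocked down, fewer of the genes had moved at 24 h than at 48 h, when nearly all had fallen. At 24 h, 11 of the 38 fell (adjusted p under 0.05, limma on log2 of normalised count plus 1, adjusted over 21025 genes) and 1, TK1, rose. Over all genes tested 22.5% fell and 24.2% rose, so the share of the 38 that fell (28.9%) was near the background and the share that rose (2.63%) was below it. At 48 h, 34 of the 38 fell and none rose, against 31.7% and 32.2% of all genes. The median log2 fold change of the 38 was -0.16 at 24 h and -0.89 at 48 h, where that of all genes tested was 0.00 and 0.01. Among the genes called lower at 48 h, 16 of the 38 were at least 2-fold lower, against 2886 of the 21025 genes tested. At 24 h the shFLI1 libraries lay below all shScramble libraries in 10 of the 38 and above them in 2, against 21.4% and 23.7% of all genes. In 31 of the 38, all 3 shFLI1 libraries at 48 h lay below all 5 shScramble libraries, against 30.6% of all genes, and in none did they lie above, against 31.5%. With the library division as a term, 17 fell and 1 rose at 24 h, and 35 fell at 48 h, and the shares of all genes in that fit are not given. Without shFLI1 replicate 2 or replicate 3 the count that fell at 24 h was 7. At 48 h mitochondrial ribosomal RNA made up 22.1 to 22.5% of reads in shFLI1 libraries, against 16.2 to 18.0% in shScramble libraries, and the 10 most abundant genes took 28.9 to 30.5%, against 20.6 to 22.7%; their part in the result was not tested. In these bulk samples, fewer cells of a type, such as cells in S phase, and less RNA per cell cannot be told apart.

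**Figure D1:**
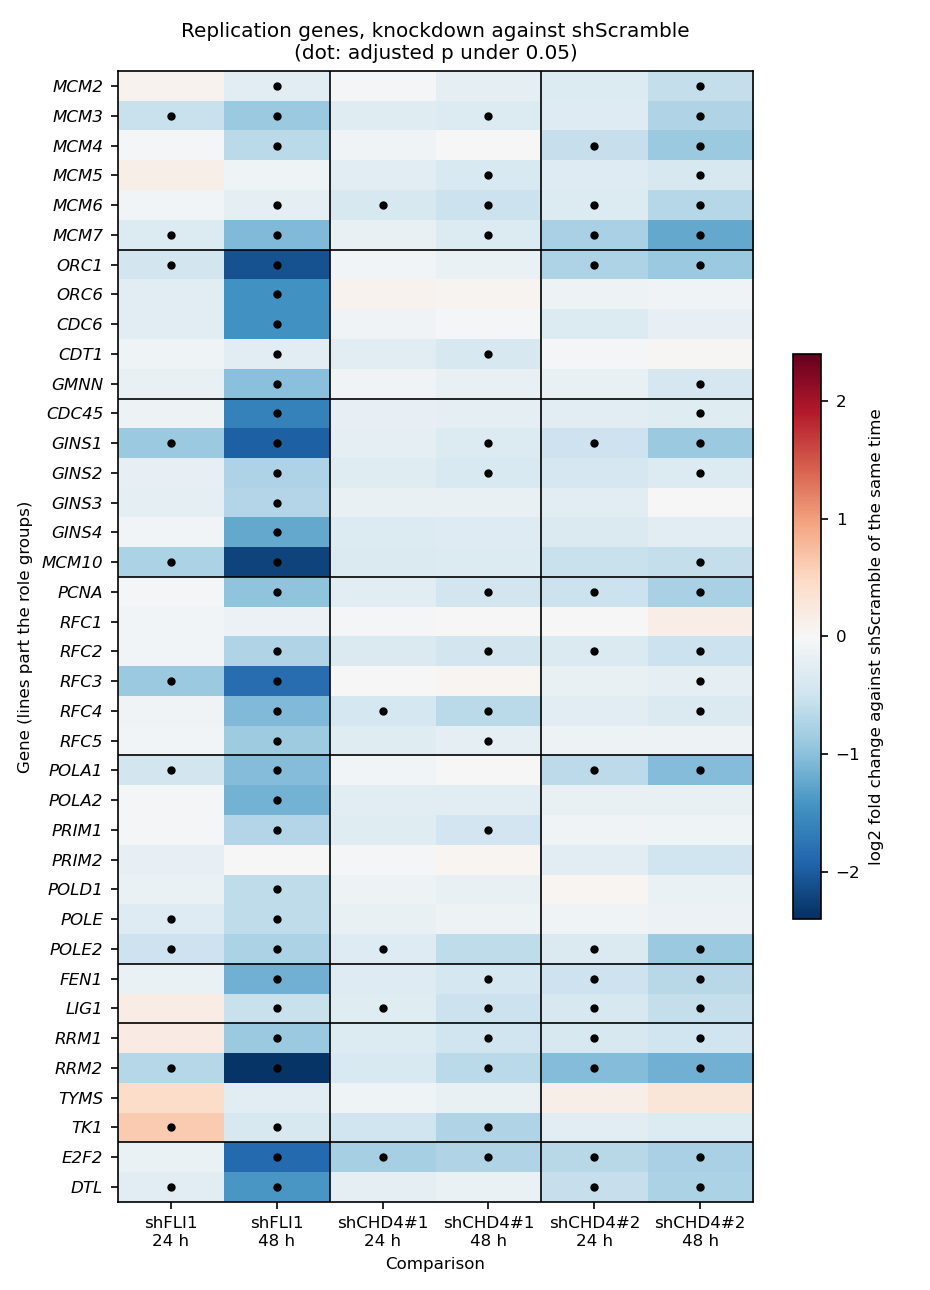
Log2 fold change of each of the 38 genes (rows, by role) in each knockdown against shScramble of the same time (columns). Blue is lower and red is higher, and a dot marks an adjusted p under 0.05. The shFLI1 column at 48 h carries 34 dots, all in blue, and the column at 24 h carries 12.

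All 5 origin licensing genes fell at 48 h, with a median log2 fold change of -1.45. The RNA of ORC1, the subunit of the origin recognition complex whose level follows the cell cycle, had 758, 776 and 729.9 normalised counts with shFLI1 at 48 h, against 2996, 2610.0, 3628, 3551 and 3533 with shScramble. The 3 knockdown libraries lay close together and far below every control (log2 fold change -2.10, SE 0.10, adjusted p = 7.87e-10). At 24 h it had 3055, 2365 and 2162 with shFLI1, against 2915, 3055, 3427, 3289 and 4402 with shScramble. There the groups overlapped, the fall was smaller (log2 fold change -0.44, SE 0.14, adjusted p = 0.0199), and it was no longer called without shFLI1 replicate 2 (adjusted p = 0.0801) or 3 (0.114). CDC6, which helps to load the helicase, fell at 48 h to 1848, 2233 and 1635 with shFLI1, against 5162, 4168, 5442, 5314 and 5879.7 with shScramble (log2 fold change -1.45, SE 0.11, adjusted p = 4.73e-08). ORC6, another subunit of the recognition complex, had 517, 695 and 575, against 1498, 1335, 1692, 1831 and 1829 (-1.46, SE 0.12, adjusted p = 7.2e-08). The groups did not overlap for CDC6 or for ORC6, and at 24 h neither gene had passed the test (CDC6 -0.25, adjusted p = 0.167, ORC6 -0.26, adjusted p = 0.195). Geminin, GMNN, the inhibitor of CDT1, averaged 1537 ± 107 with shFLI1 at 48 h, against 3070.4 ± 215 with shScramble (-0.997, SE 0.08, adjusted p = 7.06e-08). CDT1 itself moved least in this group. It had 1707, 1571 and 1894 with shFLI1 at 48 h, against 2005, 1758, 2106, 2180.2 and 2222 with shScramble (-0.25, SE 0.10, adjusted p = 0.0354). The groups overlapped, and that call was lost without shFLI1 replicate 1 or 2 or without shScramble replicate 3, 4 or 5 (adjusted p 0.0627 to 0.167).

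All 6 genes of helicase activation fell at 48 h, with a median log2 fold change of -1.42. MCM10, a scaffold needed to fire the helicase, had 513, 705 and 546 with shFLI1 at 48 h, against 2571, 1905, 2897, 3158 and 3302 with shScramble (log2 fold change -2.22, SE 0.15, adjusted p = 1.76e-08). GINS1, a subunit of the GINS complex, had 1076, 1214 and 1138, against 4232, 4095, 4565, 4681 and 4536 (-1.95, SE 0.08, adjusted p = 2.41e-10). Both were already lower at 24 h, when MCM10 had 1923, 1691 and 1487 with shFLI1, against 2369, 2170.0, 3276, 3025 and 3745 with shScramble (-0.76, SE 0.17, adjusted p = 0.00199). GINS1 had 2536, 2349.8 and 2487 with shFLI1 at that time, against 4246, 4181, 4519, 4663 and 5193 with shScramble (-0.89, SE 0.12, adjusted p = 2.28e-05). Neither gene's groups overlapped at either time, and the controls of MCM10 spread more widely than those of GINS1. CDC45, which joins the MCM helicase and GINS, behaved otherwise. At 24 h it had 4279, 3503 and 3184 with shFLI1, against 3619, 3664, 4082, 3958 and 4454 with shScramble, overlapping groups that did not pass the test (-0.12, SE 0.11, adjusted p = 0.413). At 48 h it had 1153, 1425 and 1230.4, against 3892, 3054, 4056, 4176 and 4312 (-1.61, SE 0.11, adjusted p = 1.2e-08), with every knockdown library below every control. The other GINS subunits fell at 48 h as well: GINS4 by 1.23, GINS2 by 0.74 and GINS3 by 0.70 on the log2 scale, with adjusted p of 4.47e-06, 4.48e-05 and 0.000196. Part of the exons of GINS4 (21.2%) and GINS3 (10.9%) lies opposite an antisense gene, and the strand setting of the counting is not given, so these values are less certain.

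The MCM helicase subunits themselves fell less, with a median of -0.45 at 48 h, and unequally. MCM7 had 11119, 12383 and 9741 with shFLI1 at 48 h, against 21370.4, 21829, 24789.9, 24094 and 23684 with shScramble (log2 fold change -1.07, SE 0.09, adjusted p = 2.22e-07). MCM3 had 10767, 11949 and 9332, against 19264, 20084, 19542, 20072 and 19275 (-0.89, SE 0.10, adjusted p = 3.12e-06), and MCM4 had 10529, 11657 and 8953, against 15114, 13883, 17091, 17219 and 17553 (-0.64, SE 0.12, adjusted p = 0.000262). None of these groups overlapped. MCM2 and MCM6 passed the test with small changes (-0.26, adjusted p = 0.0375 and -0.24, adjusted p = 0.0306). Both calls depended on the libraries used: that of MCM2 was lost without shFLI1 replicate 3 (adjusted p = 0.218) or any of shScramble replicates 2 to 5 (0.0561 to 0.0595), and that of MCM6 without shFLI1 replicate 1 (0.0647) or 3 (0.145) or shScramble replicate 5 (0.0517). MCM5 did not pass, with 8734, 9134 and 7768 with shFLI1, against 9481, 9089.7, 9157, 9081 and 9199 with shScramble (-0.11, SE 0.09, adjusted p = 0.297). The subunits act as one ring, yet at 48 h the fold changes ran from -1.07 for MCM7 to -0.11 for MCM5. For MCM2, 22.7% of the exon bases lie opposite an antisense gene, so its values are less certain. At 24 h MCM3 had 15451, 14194 and 13390.4 with shFLI1, against 20429.9, 19640.4, 21071, 18476 and 23909 with shScramble, without overlap (-0.53, SE 0.10, adjusted p = 0.000449), and MCM7 was the other of the 6 called lower (-0.34, adjusted p = 0.034). The call of MCM7 at 24 h was lost without shFLI1 replicate 2 (adjusted p = 0.103) or 3 (0.178) or shScramble replicate 3 (0.0592) or 5 (0.0638).

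Of the clamp and its loader, 5 of 6 genes fell at 48 h. PCNA, the sliding clamp, had 7469, 8238 and 6339 with shFLI1 at 48 h, against 14234, 12210.0, 15774, 14280.2 and 15168 with shScramble (log2 fold change -0.97, SE 0.12, adjusted p = 4.63e-06). RFC3, a small subunit of the loader, had 1765, 2087 and 2004, against 8029, 6399, 6512, 6912 and 7014 (-1.84, SE 0.09, adjusted p = 5.25e-10). The knockdown libraries of both lay below every control. RFC3 was also the loader gene that had moved at 24 h, with 4808, 4163 and 3633 with shFLI1, against 8546, 8075, 7295, 6951 and 7866 with shScramble (-0.89, SE 0.11, adjusted p = 1.32e-05). PCNA at 24 h had 17396, 14234 and 13836, against 15795, 12951, 17118, 13475 and 19529.9, overlapping groups with no call (-0.05, SE 0.13, adjusted p = 0.79). RFC4 had 2701, 2985 and 2779.6 with shFLI1 at 48 h, against 5504, 5766, 6134, 6087 and 5999.6 with shScramble (-1.06, SE 0.08, adjusted p = 2.82e-08), and RFC5 and RFC2 fell by 0.85 and 0.71 on the log2 scale (adjusted p = 8.03e-08 and 2.47e-06), each without overlap. RFC1, the large subunit, did not pass: it had 7892, 7737 and 6837 with shFLI1 at 48 h, against 8408, 7777, 8538, 8184 and 8200.1 with shScramble (-0.14, SE 0.07, adjusted p = 0.0949). With the library division as a term it was called, at -0.16 and an adjusted p of 0.0348.

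Among the polymerase and primase genes, 6 of 7 fell at 48 h, with a median of -0.70. POLA1, the catalytic subunit of polymerase alpha, had 5531, 5935 and 5812 with shFLI1 at 48 h, against 14809.7, 12478, 10536, 10438 and 11497 with shScramble (log2 fold change -1.04, SE 0.18, adjusted p = 0.000169). POLA2, its accessory subunit, had 718, 862 and 696, against 1779, 1440.0, 1697, 1685 and 1719.6 (-1.13, SE 0.10, adjusted p = 1.34e-07). Neither overlapped, though 35.1% of the exon bases of POLA2 are shared with a neighbouring annotated gene on the same strand. PRIM1, the catalytic primase subunit, fell by 0.70 on the log2 scale (adjusted p = 3.53e-05), though 14.9% of its exon bases are shared with another annotated gene on the same strand. Its partner PRIM2 did not fall: it had 6745, 5857 and 6799 with shFLI1 at 48 h, against 8637, 6796, 5481, 5268 and 6588 with shScramble (0.00, SE 0.18, adjusted p = 0.999). PRIM2 has near-identical copies in the genome, so its reads are uncertain, and it was higher in shScramble replicates 1 and 2 than in 3 to 5 at both times. POLD1 and POLE, the catalytic subunits of polymerases delta and epsilon, both fell (-0.62 and -0.62, adjusted p = 0.000665 and 6.25e-06). POLE2, the second subunit of polymerase epsilon, had 1663, 513 and 594 with shFLI1 at 48 h, against 1529, 1308, 1269.8, 1367 and 1336 with shScramble. Replicate 1 stood above every control and the others below all of them, the SE was the largest but 1 of the 38 (-0.77, SE 0.29, adjusted p = 0.0316), and the call was lost without shFLI1 replicate 2 (adjusted p = 0.210) or 3 (0.158) or shScramble replicate 1 (0.0555). At 24 h POLE2 had 1058, 896 and 1039, against 1391, 1439.9, 1454, 1362 and 1341, without overlap (-0.49, SE 0.08, adjusted p = 0.000247). POLE was lower at 24 h as well, with 9807, 9787 and 10785 with shFLI1, against 13016, 12801, 12251, 12370.2 and 12212 with shScramble, without overlap (-0.31, SE 0.07, adjusted p = 0.00232). The call of POLA1 at that time (-0.45, adjusted p = 0.0366) was lost without any 1 of the 3 shFLI1 libraries or without shScramble replicate 1 or 2 (0.0703 to 0.113). Like PRIM2, POLA1 was higher in shScramble replicates 1 and 2 than in 3 to 5 at both times. At 24 h these had 15356 and 14826, against 11252, 10703 and 10779. The shFLI1 libraries, with 9294, 8744 and 9330, lay below all of them but fall with replicates 3 to 5 in the library division.

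FEN1, the nuclease that trims Okazaki fragments, had 1244, 1380.0 and 1107 with shFLI1 at 48 h, against 2773, 2501, 2881, 2667 and 2999 with shScramble (log2 fold change -1.15, SE 0.09, adjusted p = 4.89e-08). LIG1, the ligase that joins them, had 2728, 2784 and 2755, against 3984, 3686, 3801, 4196 and 4246 (-0.53, SE 0.09, adjusted p = 0.000128). All knockdown libraries of both lay below all controls, and FEN1 fell further than LIG1. Neither was called at 24 h, when LIG1 had 4659, 4421 and 4249 with shFLI1, all above the 3794, 3745, 4088, 3795 and 4164 with shScramble (0.18, SE 0.08, adjusted p = 0.0922).

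The nucleotide supply genes held the gene that fell most and the gene that rose. RRM2, the subunit that limits ribonucleotide reductase in S phase, had 9872, 8081 and 8582 with shFLI1 at 24 h, against 13502, 13043, 14398, 13587 and 17058 with shScramble (log2 fold change -0.69, SE 0.12, adjusted p = 0.000257). At 48 h it had 2537, 3051 and 3029.8, against 15328, 11249, 15774, 14164 and 17053 (-2.35, SE 0.14, adjusted p = 2.99e-09). The groups did not overlap at either time. RRM1, the other subunit, did not pass at 24 h, with 14825, 12429 and 12538 with shFLI1, against 10983, 11511, 11531, 10358 and 13501 with shScramble (0.20, SE 0.11, adjusted p = 0.166). At 48 h it had 6316, 6609 and 5979, against 11493, 11819, 11787, 11003 and 12071 (-0.89, SE 0.07, adjusted p = 5.28e-08), without overlap. RRM2 shares 20.2% of its exon bases with another annotated gene on the same strand, so part of its count is uncertain. TK1, thymidine kinase of the salvage route, had 3889, 3645 and 2929.7 with shFLI1 at 24 h, all above the 1849, 2039, 2458, 2156 and 2752 with shScramble (0.64, SE 0.15, adjusted p = 0.0029). At 48 h the order was turned round, with 1724, 1948 and 1507 with shFLI1, against 2264, 1721, 2632, 2308 and 2427 with shScramble (-0.39, SE 0.13, adjusted p = 0.0151). These groups overlapped, and the call at 48 h was lost without shFLI1 replicate 3 (adjusted p = 0.0878). TYMS, thymidylate synthase, had 1009.8, 1148 and 980.2 with shFLI1 at 48 h, against 913, 446, 1984, 1782 and 2083 with shScramble, and was not called (-0.26, SE 0.39, adjusted p = 0.581). Its controls split: replicates 1 and 2, which belong to the 12 libraries that stood apart, lay below replicates 3 to 5 at both times. Against replicates 3 to 5 alone the log2 fold change was -0.90 (adjusted p = 0.000240), and with the library division as a term it was -0.58 (adjusted p = 0.124). TYMS also shares 39.1% of its exon bases with ENOSF1 on the other strand.

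Both regulators fell at 48 h. E2F2, a transcription factor that drives entry into S phase, had 712, 837 and 650.0 with shFLI1 at 48 h, against 3399, 2264, 2692, 2488 and 2564 with shScramble (log2 fold change -1.86, SE 0.15, adjusted p = 6.28e-08). At 24 h it had 3453, 2553 and 1875, against 2895, 2823, 2954, 2337 and 3358, with the knockdown libraries spread from below the lowest control to above the highest (-0.16, SE 0.16, adjusted p = 0.417). DTL, the substrate receptor of the ligase that destroys CDT1 on PCNA, had 2392, 2802 and 2264 with shFLI1 at 48 h, against 7159.8, 7069, 5780.1, 6208 and 6392 with shScramble (-1.39, SE 0.10, adjusted p = 3.54e-08), without overlap. Its call at 24 h (-0.28, adjusted p = 0.0291) was lost without shFLI1 replicate 2 (adjusted p = 0.0992) or 3 (0.119) or shScramble replicate 1 (0.0596) or 2 (0.0502). DTL was higher in shScramble replicates 1 and 2 than in 3 to 5 at both times. At 24 h these had 6962 and 7871, against 5959, 5935 and 6232, and the shFLI1 libraries had 5915, 5249 and 5063. Genes with and without the E2F motif shown above had median log2 fold changes of -0.93 and -0.89 at 48 h, and those with and without the CCAAT motif had medians of -0.997 and -0.71. Neither difference was tested.

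**Figure D2:**
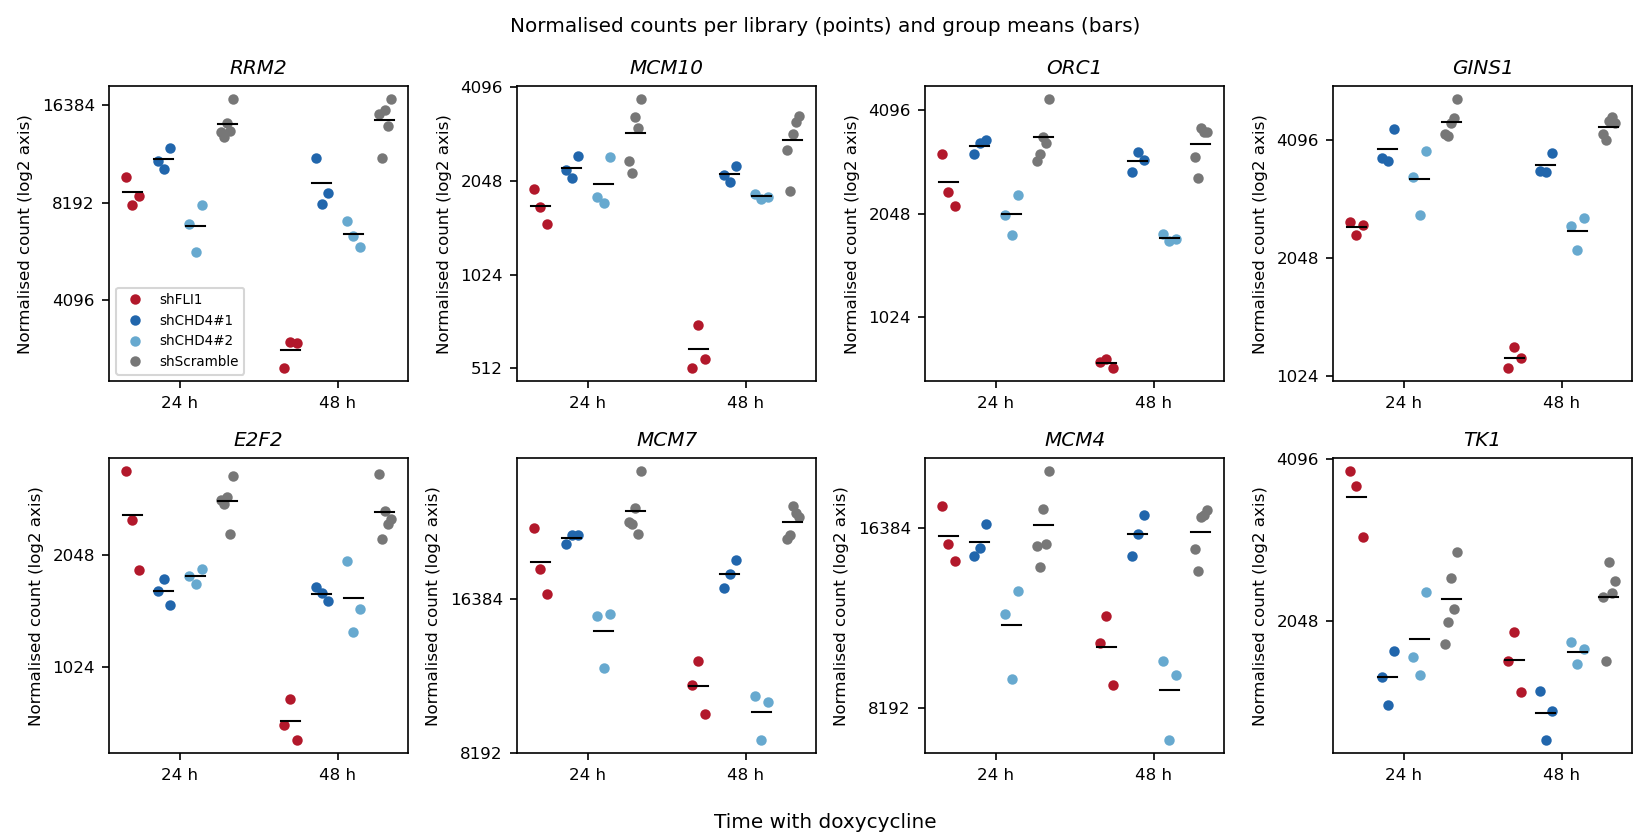
Normalised counts (log2 axis) of 8 of the genes in every library at 24 and 48 h, as points coloured by hairpin, with group means as bars. RRM2, MCM10, ORC1 and GINS1 drop to their lowest points with shFLI1 at 48 h, TK1 is highest with shFLI1 at 24 h, and MCM4 and MCM7 separate the CHD4 hairpins.

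The change with shFLI1 grew between the times. The log2 fold change at 48 h was lower than that at 24 h in 26 of the 38 (adjusted p under 0.05, limma over all 28 libraries) and higher in none, against 9.44% and 7.22% of all genes. The median difference of the log2 fold changes was -0.76. In 13 of the genes called lower it was at least 2-fold, against 758 of the 21025 genes tested. E2F2 had the largest difference (-1.70, SE 0.22, adjusted p = 6.15e-06), followed by ORC1 (-1.66, SE 0.18, adjusted p = 3.88e-07), RRM2 (-1.65, SE 0.18, adjusted p = 6.47e-07) and CDC45 (-1.49, SE 0.16, adjusted p = 3.44e-07). Smaller differences that passed included those of LIG1, the ligase (-0.71, adjusted p = 0.000113), and PCNA, the clamp (-0.92, adjusted p = 0.000747). By role, the difference passed the test in 5 of 6 genes of helicase activation, 5 of 6 of the clamp and loader, 4 of 5 of licensing, 3 of 4 of nucleotide supply, both of Okazaki processing, both regulators, 3 of 7 of the polymerases and 2 of 6 MCM genes. In the MCM ring MCM7 (-0.73, adjusted p = 0.0013) and MCM4 (-0.59, adjusted p = 0.0257) passed, and MCM3, which was already lower at 24 h, did not (-0.36, adjusted p = 0.0752). The difference of MCM4 was no longer called without shFLI1 replicate 1 at 24 h (adjusted p = 0.0969) or replicate 3 at 48 h (0.0924). TK1, lower at 48 h and higher at 24 h, differed by -1.02 (SE 0.20, adjusted p = 0.000767).

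**Figure D3:**
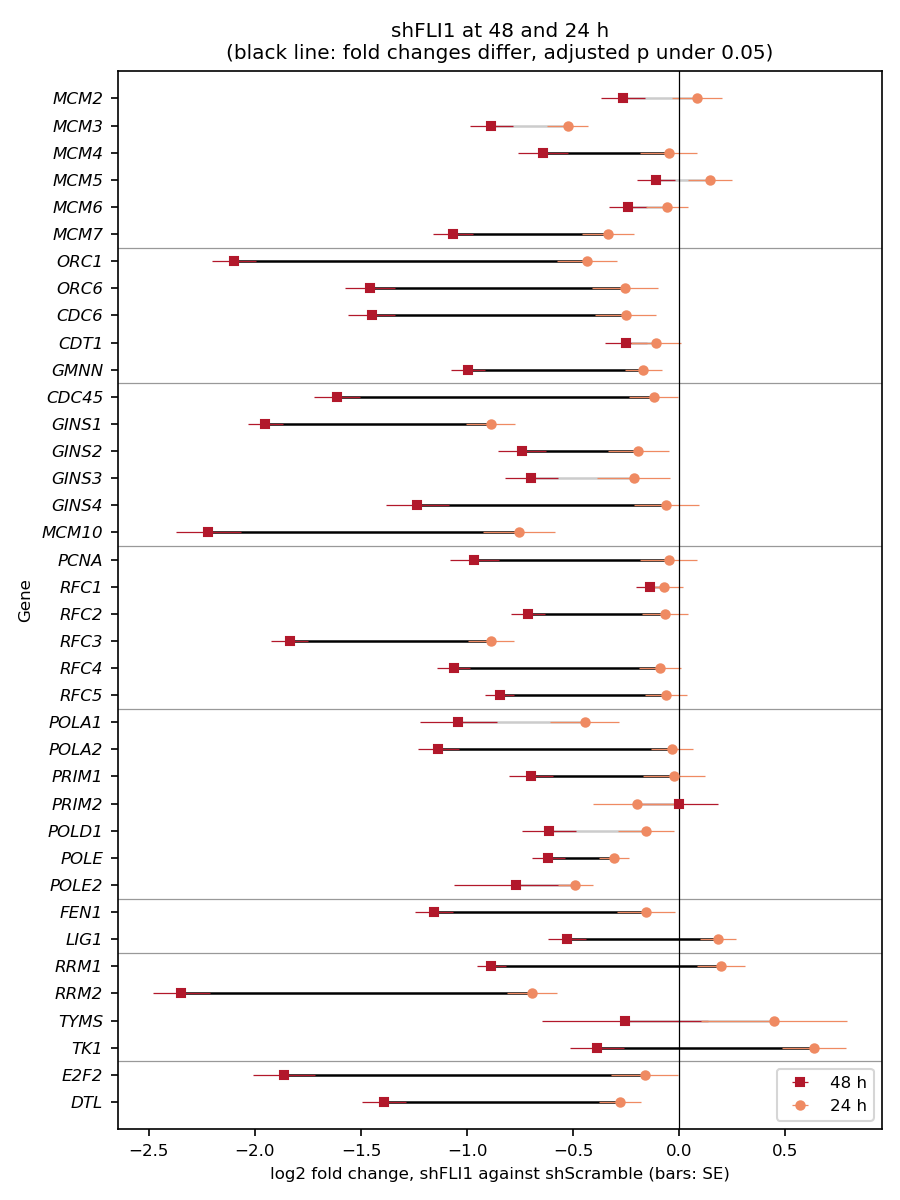
Log2 fold change of each gene with shFLI1 against shScramble at 48 h (red squares) and 24 h (orange circles), with SE as bars. A black line, grey elsewhere, joins the times where they differ at an adjusted p under 0.05, which holds for 26 of the 38 genes.

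With CHD4 knocked down the genes that were called had all fallen, and the called genes were not the same with each hairpin. At 24 h, 5 of the 38 fell with shCHD4#1 and 15 with shCHD4#2, and none rose. Of all genes tested 6.14% fell and 5.21% rose with shCHD4#1, and 7.01% fell and 4.05% rose with shCHD4#2. At 48 h, 18 fell with shCHD4#1, against 15.5% of all genes, and 24 with shCHD4#2, against 20.3% of all genes. None of the 38 rose at 48 h, where 12.9% and 17.5% of all genes did. The median log2 fold change of the 38 was -0.26 and -0.32 with shCHD4#1 at 24 and 48 h, and -0.32 and -0.43 with shCHD4#2, with all-gene medians between -0.02 and 0.01. The largest falls at 48 h were those of MCM7 (-1.24), RRM2 (-1.16) and POLA1 (-1.04) with shCHD4#2. These were the genes of the 38 called at least 2-fold lower, as were 1181 of the 21025 genes tested. All shCHD4#1 libraries lay below all shScramble libraries in 18 of the 38 at 24 h and in 18 at 48 h, against 9.61% and 16.4% of all genes, and above them in none, against 8.35% and 14.8%. All shCHD4#2 libraries lay below in 15 at 24 h and in 24 at 48 h, against 9.67% and 18.5% of all genes, and above in 0 and 1, against 7.06% and 16.2%. With the library division as a term the counts that fell were 12 and 21 at 24 h, and 19 and 25 at 48 h. The shares of all genes in that fit are not given, so these rises cannot be read as particular to the 38. The fold changes at 48 h and 24 h differed in none of the 38 with either hairpin by limma's adjusted p, where 0.00476% of all genes were lower and 0% higher with shCHD4#1 and 0.694% lower and 0.295% higher with shCHD4#2, and at an unadjusted p under 0.05 in 0 with shCHD4#1 and in 4 with shCHD4#2. The share of all genes at an unadjusted p under 0.05 is not given. The comparisons with both hairpins, and with shFLI1, share their shScramble libraries.

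The counts at 24 h depended on the fit and on single libraries. Same-numbered libraries of the CHD4 hairpins and shScramble deviated together, and pairing and the library division cannot be told apart there. With shCHD4#1, with the number as a block and the shFLI1 libraries left out, 18 of the 38 fell and 1 rose. That fit was chosen after the data were seen, and its share of all genes is not given. Without shCHD4#1 replicate 1, 2 or 3 the count was 3, 1 and 2, and without shScramble replicate 3 it was 3; the call of E2F2 held in each. RFC4 had 4416, 4194 and 4763 with shCHD4#1 at 24 h, against 5537, 5663, 5965, 5849 and 6973 with shScramble (log2 fold change -0.43, SE 0.10, adjusted p = 0.0116), with no overlap, and lost its call without shCHD4#1 replicate 2 (adjusted p = 0.0836). MCM6 (-0.39, adjusted p = 0.0184) lost it without replicate 2 (0.0665) or 3 (0.0726). POLE2 (-0.31, adjusted p = 0.0295) and LIG1 (-0.30, adjusted p = 0.0341) lost it without any 1 of the shCHD4#1 libraries (0.0701 to 0.137 and 0.0613 to 0.199), and also without shScramble replicate 1 or 3 for POLE2 and replicate 3, 4 or 5 for LIG1. POLE2 had 1140.3, 1102 and 1149 with shCHD4#1 at 24 h, against 1391, 1439.9, 1454, 1362 and 1341 with shScramble, groups that did not overlap. With shCHD4#2 the calls of RRM2, MCM7, ORC1 and DTL held in every fit that left out 1 library, and the other 11 were each lost without shCHD4#2 replicate 2 (adjusted p 0.0780 to 0.295).

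E2F2 was the gene that fell most with shCHD4#1 at both times. It had 1639, 1771 and 1502 normalised counts with shCHD4#1 and 1801, 1714 and 1883 with shCHD4#2 at 24 h, against 2895, 2823, 2954, 2337 and 3358 with shScramble. Neither hairpin overlapped the controls (shCHD4#1 -0.80, SE 0.16, adjusted p = 0.00461; shCHD4#2 -0.67, SE 0.16, adjusted p = 0.0137), and the call with shCHD4#2 was lost without its replicate 2 (adjusted p = 0.0802). At 48 h it had 1678, 1626 and 1541 with shCHD4#1 and 1976, 1271 and 1472 with shCHD4#2, against 3399, 2264, 2692, 2488 and 2564 with shScramble (shCHD4#1 -0.72, SE 0.15, adjusted p = 0.00235, shCHD4#2 -0.78, SE 0.15, adjusted p = 0.000888). The hairpins lay together and below the controls. DTL, the other regulator, had 4414, 4415 and 4635 with shCHD4#2 at 24 h, against 6962, 7871, 5959, 5935 and 6232 with shScramble. It fell with shCHD4#2 at both times (-0.55, adjusted p = 0.00256 and -0.75, adjusted p = 7.68e-05) and was not called with shCHD4#1 (-0.21, adjusted p = 0.194 and -0.15, adjusted p = 0.29).

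In the MCM ring all 6 subunits fell with shCHD4#2 at 48 h and 4 with shCHD4#1. MCM6 had 4115, 4114 and 4737 with shCHD4#1 and 4142, 3279.6 and 4186 with shCHD4#2 at 48 h, against 6273, 6223, 6076, 5974 and 6204 with shScramble. Both groups lay below every control and near each other (-0.51, SE 0.09, adjusted p = 0.000915, and -0.68, SE 0.09, adjusted p = 6.31e-05). MCM7 had 17199, 18297 and 19491 with shCHD4#1 and 10588, 8675 and 10289 with shCHD4#2, against 21370.4, 21829, 24789.9, 24094 and 23684 with shScramble. Here shCHD4#2 lay far below shCHD4#1, which lay just below the controls (-0.34, SE 0.09, adjusted p = 0.0162 with shCHD4#1, and -1.24, SE 0.09, adjusted p = 7.34e-07 with shCHD4#2). At 24 h it had 15147, 11999 and 15299.6 with shCHD4#2, against 23096, 22913, 24602, 21881 and 29019 with shScramble (-0.78, SE 0.12, adjusted p = 0.000896), again without overlap. The call with shCHD4#1 at 48 h was lost without its replicate 1 (adjusted p = 0.0709) or 2 (0.0582), and with the replicate number as a block (0.0847). MCM4 had 14734, 16015 and 17231 with shCHD4#1 and 9828, 7243 and 9321 with shCHD4#2, against 15114, 13883, 17091, 17219 and 17553 with shScramble. The shCHD4#1 libraries lay among the controls (-0.01, SE 0.12, adjusted p = 0.95) and the shCHD4#2 libraries below all of them (-0.88, SE 0.12, adjusted p = 6.25e-05). MCM3, MCM5 and MCM2 had log2 fold changes of -0.33, -0.37 and -0.23 with shCHD4#1 and of -0.72, -0.38 and -0.58 with shCHD4#2, all called but MCM2 with shCHD4#1 (adjusted p = 0.12). The call of MCM3 with shCHD4#1 was lost without its replicate 1 (0.119) or 2 (0.0726) and with the block (0.0862).

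Of the licensing genes, 1 of 5 fell with shCHD4#1 and 2 of 5 with shCHD4#2 at 48 h, against 15.5% and 20.3% of all genes. ORC1 had 2706, 3106 and 2939.8 with shCHD4#1 and 1786, 1704 and 1732 with shCHD4#2 at 48 h, against 2996, 2610.0, 3628, 3551 and 3533 with shScramble. It fell with shCHD4#2, without overlap (-0.90, SE 0.10, adjusted p = 1.89e-05), and was not called with shCHD4#1 (-0.15, SE 0.10, adjusted p = 0.299). It was already lower with shCHD4#2 at 24 h, with 2035, 1779 and 2329, against 2915, 3055, 3427, 3289 and 4402 with shScramble (-0.73, SE 0.14, adjusted p = 0.00407). CDT1 showed the other order, with 1450.1, 1506 and 1735 with shCHD4#1 and 1987, 2045 and 2219 with shCHD4#2, against 2005, 1758, 2106, 2180.2 and 2222 with shScramble (-0.39, SE 0.10, adjusted p = 0.00826 with shCHD4#1, and 0.02, SE 0.10, adjusted p = 0.873 with shCHD4#2). ORC6 and CDC6 were called with neither hairpin, with log2 fold changes between -0.20 and 0.07 at 48 h. Of helicase activation, GINS1 had 3408, 3398 and 3802 with shCHD4#1 and 2470.1, 2150.2 and 2592 with shCHD4#2 at 48 h, against 4232, 4095, 4565, 4681 and 4536 with shScramble. Both fell below the controls, shCHD4#2 further (-0.32, SE 0.08, adjusted p = 0.0102 with shCHD4#1, and -0.88, SE 0.08, adjusted p = 3.6e-06 with shCHD4#2). The call with shCHD4#1 was lost without its replicate 2 (adjusted p = 0.0550). GINS3 and GINS4 were called with neither.

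RRM2 was the gene with the largest fall with shCHD4#2 at 24 h, with 7057, 5791 and 8041 normalised counts, and with 10996, 10383 and 12059 with shCHD4#1, against 13502, 13043, 14398, 13587 and 17058 with shScramble. Both groups lay below the controls, and the test passed with shCHD4#2 (log2 fold change -1.05, SE 0.12, adjusted p = 0.000106) but not with shCHD4#1 (-0.36, SE 0.12, adjusted p = 0.0686). At 48 h it had 11240.1, 8145 and 8798 with shCHD4#1 and 7192, 6489.6 and 5974 with shCHD4#2, against 15328, 11249, 15774, 14164 and 17053 with shScramble (-0.65, SE 0.14, adjusted p = 0.00274 with shCHD4#1, and -1.16, SE 0.14, adjusted p = 1.95e-05 with shCHD4#2). RRM1 at 48 h had 8947, 7846 and 8233 with shCHD4#1 and 8497, 8053 and 8659 with shCHD4#2, against 11493, 11819, 11787, 11003 and 12071 with shScramble. Here the hairpins lay together, below every control (-0.48, SE 0.07, adjusted p = 0.000173, and -0.47, SE 0.07, adjusted p = 0.000122). TK1 fell with shCHD4#1 (-0.72, adjusted p = 0.00093) and missed the threshold with shCHD4#2 (-0.33, adjusted p = 0.0555).

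Among fork genes, RFC4 had 3495, 3735 and 4058 with shCHD4#1 and 4425, 4454 and 5084 with shCHD4#2 at 48 h, against 5504, 5766, 6134, 6087 and 5999.6 with shScramble. Both fell below the controls, shCHD4#1 further (-0.65, SE 0.08, adjusted p = 4.78e-05 with shCHD4#1, and -0.34, SE 0.08, adjusted p = 0.00309 with shCHD4#2). PCNA averaged 10541 ± 90.5 with shCHD4#1 and 8362 ± 1522 with shCHD4#2 (SD, n = 3 each), against 14333 ± 1350.4 with shScramble (n = 5), both called (-0.44, adjusted p = 0.0117 and -0.79, adjusted p = 0.000134). LIG1 had 2743, 2445 and 3181 with shCHD4#1 and 2719, 2438 and 2849 with shCHD4#2, against 3984, 3686, 3801, 4196 and 4246 with shScramble, and fell with both (-0.52, SE 0.09, adjusted p = 0.000753, and -0.58, SE 0.09, adjusted p = 0.000207). FEN1 fell as well (-0.43, adjusted p = 0.00262 with shCHD4#1, and -0.66, adjusted p = 6.6e-05 with shCHD4#2). POLA1 had 13877, 11186 and 10934 with shCHD4#1 and 8793, 4812 and 4498 with shCHD4#2, against 14809.7, 12478, 10536, 10438 and 11497 with shScramble. It fell with shCHD4#2, where replicate 1 lay above the other replicates (-1.04, SE 0.18, adjusted p = 0.000526), and stayed among the controls with shCHD4#1 (0.01, SE 0.18, adjusted p = 0.977). POLA2, POLD1, POLE and PRIM2 were called with neither hairpin at 48 h. PRIM2, RFC1 and TYMS passed in no comparison of a knockdown with shScramble.

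**Figure D4:**
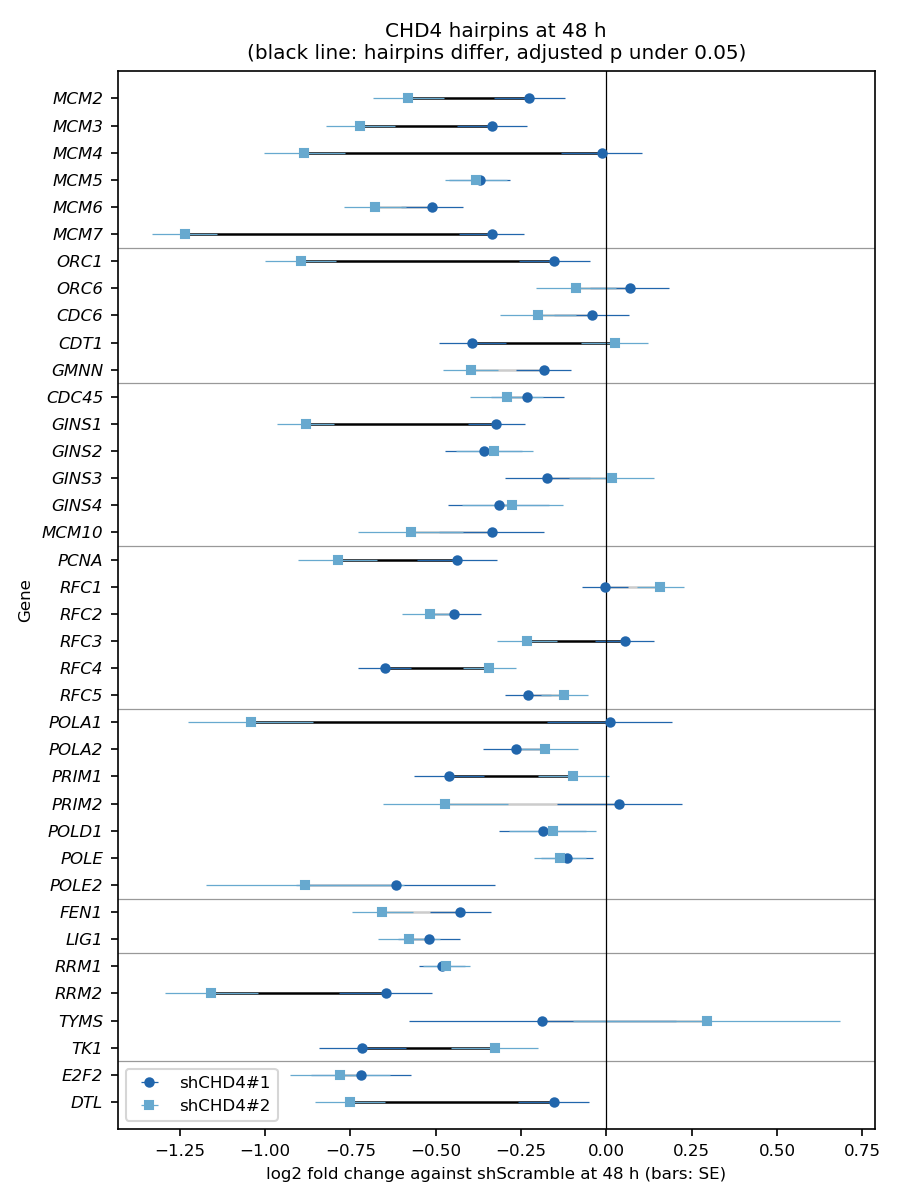
Log2 fold change of each gene at 48 h against shScramble with shCHD4#1 (dark circles) and shCHD4#2 (light squares), with SE as bars. A black line, grey elsewhere, joins the hairpins where they differ at an adjusted p under 0.05, as for MCM7, MCM4, ORC1 and POLA1, where shCHD4#2 is lower, and for CDT1, PRIM1, RFC4 and TK1, where shCHD4#1 is lower.

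Tested against each other, the hairpins differed in 3 of the 38 genes at 24 h and in 15 at 48 h. Over both directions together these counts were near the background of all genes. At 24 h MCM7, ORC1 and RRM2 were higher with shCHD4#1 than with shCHD4#2 (0.61, adjusted p = 0.011, 0.66, adjusted p = 0.016 and 0.69, adjusted p = 0.00509) and none was lower, against 5.62% and 4% of all genes. With the replicate number as a block 6 were higher, in a fit for which the share of all genes is not given. The calls of MCM7 and ORC1 at 24 h were lost without shCHD4#1 replicate 2 (adjusted p = 0.0501 and 0.0664) or shCHD4#2 replicate 2 (0.0617 and 0.0812), which left 1 gene, and that of ORC1 also without shCHD4#1 replicate 3 (0.0544). At 48 h 11 were higher and 4 lower with shCHD4#1, which is 28.9% and 10.5% of the 38, against 19.2% and 18.6% of all genes. The largest differences were those of POLA1 (1.05, SE 0.20, adjusted p = 0.00124), MCM7 (0.90, SE 0.11, adjusted p = 3.7e-05), MCM4 (0.87, SE 0.13, adjusted p = 0.00022) and ORC1 (0.74, SE 0.12, adjusted p = 0.000273). CDT1 was the largest in the other direction (-0.42, SE 0.11, adjusted p = 0.00831). The differences of CDT1, DTL, GINS1, MCM4, MCM7, ORC1 and POLA1 were called in every fit that left out 1 library, and the other 8 lost their call in at least 1. Without shCHD4#2 replicate 2 there were 7 higher, without shCHD4#2 replicate 3 there was 1 lower, and without shCHD4#1 replicate 2 there were 2 lower. FLI1 averaged 3471 normalised counts with shCHD4#1 and 2974 with shCHD4#2 at 48 h, against 3783 with shScramble, and its part in these differences was not tested.

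Tested against the mean of the CHD4 hairpins, shFLI1 gave lower values for most of the 38 genes at 48 h. At 24 h 9 of the 38 were higher with shFLI1 (23.7%) and 3 lower (7.89%), against 28% and 24.8% of all genes, so neither share was above the background. TK1 (1.00, adjusted p = 4.93e-05), E2F2 (0.57, adjusted p = 0.0058), RRM1 (0.55, adjusted p = 0.000659) and LIG1 (0.52, adjusted p = 9.66e-05) were the largest among the higher ones, and RFC3 (-0.80, adjusted p = 2.06e-05), GINS1 (-0.52, adjusted p = 0.00124) and POLE (-0.18, adjusted p = 0.0395) were lower. Without shFLI1 replicate 1 there were 5 higher, and the call of E2F2 was lost (adjusted p = 0.0517), and that of POLE was lost without any 1 of the CHD4 libraries or of shFLI1 replicates 1 and 2 (0.0502 to 0.147). At 48 h 28 were lower with shFLI1 and 2 higher, against 32.8% and 32.9% of all genes. The lower ones were led by MCM10 (-1.77, adjusted p = 1.23e-07), RFC3 (-1.75, adjusted p = 5.72e-10), ORC1 (-1.58, adjusted p = 7.72e-09), ORC6 (-1.45, adjusted p = 5.45e-08) and RRM2 (-1.45, adjusted p = 2.54e-07). MCM5 and MCM6 were the genes that were higher with shFLI1 (0.27, adjusted p = 0.0144 and 0.35, adjusted p = 0.00271). MCM5 had 8734, 9134 and 7768 with shFLI1, 6245, 6952 and 8295 with shCHD4#1 and 6859.7, 6724 and 7622 with shCHD4#2, against 9481, 9089.7, 9157, 9081 and 9199 with shScramble. The call of MCM5 was lost without shFLI1 replicate 1 (0.0540) or 2 (0.0817), and with the library division as a term (0.19, adjusted p = 0.0728).

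Other genes of the same processes were read from lists by function that do not share a gene with the 38. Their counts stand against the same shares of all genes, which with shFLI1 were 22.5% lower and 24.2% higher at 24 h and 31.7% lower and 32.2% higher at 48 h. At 48 h those shares were 15.5% lower and 12.9% higher with shCHD4#1, and 20.3% lower and 17.5% higher with shCHD4#2. Of 30 further fork and origin genes, 13 fell and 4 rose with shFLI1 at 24 h, and 23 fell and 2 rose at 48 h, with medians of -0.11 and -0.77. ORC5, a subunit of the origin recognition complex, was the gene with the smallest adjusted p at 24 h, averaging 1858 ± 29.2 normalised counts with shFLI1, against 3285 ± 75.5 with shScramble (-0.82, SE 0.07, adjusted p = 4.02e-07; SD, n = 3 and 5). DSCC1, a subunit of an alternative clamp loader, averaged 1228 ± 63 normalised counts with shFLI1 at 48 h, against 6175 ± 879 with shScramble (-2.32, SE 0.11, adjusted p = 4.39e-10). TICRR, needed to load CDC45, averaged 1729.6 ± 173, against 6538 ± 418 (-1.92, SE 0.08, adjusted p = 2.57e-10). POLE3, an accessory subunit of polymerase epsilon, fell at both times (-0.998, adjusted p = 6.82e-05 and -1.74, adjusted p = 1.46e-09). POLD4, the smallest subunit of polymerase delta, went the other way, at 382 ± 63.7 with shFLI1, against 95.9 ± 24.3 with shScramble (2.00, SE 0.19, adjusted p = 5.04e-07). CDC7, the kinase that fires origins, was the other gene that rose at 48 h (0.42, adjusted p = 0.00109), and is named after its values were seen. With the CHD4 hairpins at 48 h, 12 of the 30 fell and none rose with shCHD4#1, and 13 fell and 2 rose with shCHD4#2.

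Of 31 further nucleotide supply genes tested, 17 fell and none rose with shFLI1 at 24 h, and 24 fell and none rose at 48 h, against 22.5% and 31.7% of all genes that fell, with medians of -0.58 and -1.28. The shift at 24 h was larger than that of the 38 genes, whose median was -0.16; the difference between the lists was not tested. NME1, a nucleoside diphosphate kinase, averaged 704 ± 89.3 with shFLI1 at 48 h, against 4434 ± 631 with shScramble (-2.65, SE 0.12, adjusted p = 2.89e-10). SLC29A1, a nucleoside transporter, averaged 635 ± 50.5, against 3806 ± 554 (-2.57, SE 0.13, adjusted p = 7.33e-10). ADSS2, an enzyme of adenine nucleotide synthesis, averaged 1549.8 ± 57.1 with shFLI1 at 24 h, against 3868 ± 408 with shScramble (-1.31, SE 0.09, adjusted p = 8.47e-08). IMPDH1, an enzyme of guanine nucleotide synthesis, was lower at 24 h (-1.31, adjusted p = 2.85e-06) and at 48 h (-2.18, adjusted p = 2.67e-09), as was UMPS of pyrimidine synthesis (-1.07, adjusted p = 2.37e-06 and -1.43, adjusted p = 1.6e-07). With the CHD4 hairpins at 48 h, 12 of the 31 fell and 1 rose with shCHD4#1, and 7 fell and 7 rose with shCHD4#2, against 15.5% lower and 12.9% higher of all genes with shCHD4#1 and 20.3% and 17.5% with shCHD4#2. MTHFD2, a mitochondrial enzyme of one-carbon metabolism, fell with shFLI1 at 48 h (-1.67, adjusted p = 7.9e-10) and with both CHD4 hairpins (-0.93, adjusted p = 5.22e-06 and -0.43, adjusted p = 0.000994).

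Of 14 genes listed as E2F, DP and pocket proteins, with the E2F target MYBL2 among them, 4 fell and 2 rose with shFLI1 at 24 h. At 48 h 11 fell and 1 rose. Of all genes 22.5% were lower and 24.2% higher at 24 h, and 31.7% and 32.2% at 48 h. MYBL2, an E2F target that encodes a transcription factor, averaged 3266 ± 387 with shFLI1 at 48 h, against 11562 ± 1829 with shScramble (-1.82, SE 0.12, adjusted p = 1.47e-08). E2F5 and E2F3 fell at both times (E2F5 -0.99, adjusted p = 9.04e-07 and -1.29, adjusted p = 2.31e-08, E2F3 -0.71, adjusted p = 0.00026 and -1.03, adjusted p = 1.03e-07). RB1, the retinoblastoma protein that holds E2F factors back, rose at both times (0.48, adjusted p = 0.0016 and 0.33, adjusted p = 0.0219). Of the 14, 1 fell with shCHD4#1 and 9 with shCHD4#2 at 48 h, against 15.5% and 20.3% of all genes, and none rose.

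Of 16 genes listed with the cyclins, kinases and inhibitors, 7 rose and 4 fell with shFLI1 at 24 h, and 5 rose and 9 fell at 48 h. Of all genes 24.2% rose and 22.5% fell at 24 h, and 32.2% rose and 31.7% fell at 48 h. CCND1, cyclin D1, averaged 427 ± 128 normalised counts with shFLI1 at 24 h, against 10914 ± 2911 with shScramble (-4.67, SE 0.22, adjusted p = 2.15e-09). CDKN1C, the inhibitor p57, averaged 3202 ± 325, against 204 ± 36 (3.98, SE 0.19, adjusted p = 1.94e-09), and CCND2, cyclin D2, averaged 176 ± 45.8, against 1030.3 ± 144 (-2.57, SE 0.16, adjusted p = 2.34e-08). CDC25A, the phosphatase that activates CDK2, fell at 24 h (-0.68, adjusted p = 0.00155) and at 48 h (-1.71, adjusted p = 2.23e-08). The changes of CCND1, CCND2 and CDKN1C were present at 24 h, when 11 of the 38 replication genes had fallen, against 22.5% of all genes. Whether these changes bear on the replication genes was not tested. With the CHD4 hairpins at 48 h, 2 of the 16 rose and 8 fell with shCHD4#1, and 4 rose and 7 fell with shCHD4#2, against 12.9% higher and 15.5% lower of all genes with shCHD4#1 and 17.5% and 20.3% with shCHD4#2. CCND1 was lower with shCHD4#2 (-3.09, adjusted p = 1.43e-06) and did not pass with shCHD4#1 (-0.61, adjusted p = 0.0931).

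**Figure D5:**
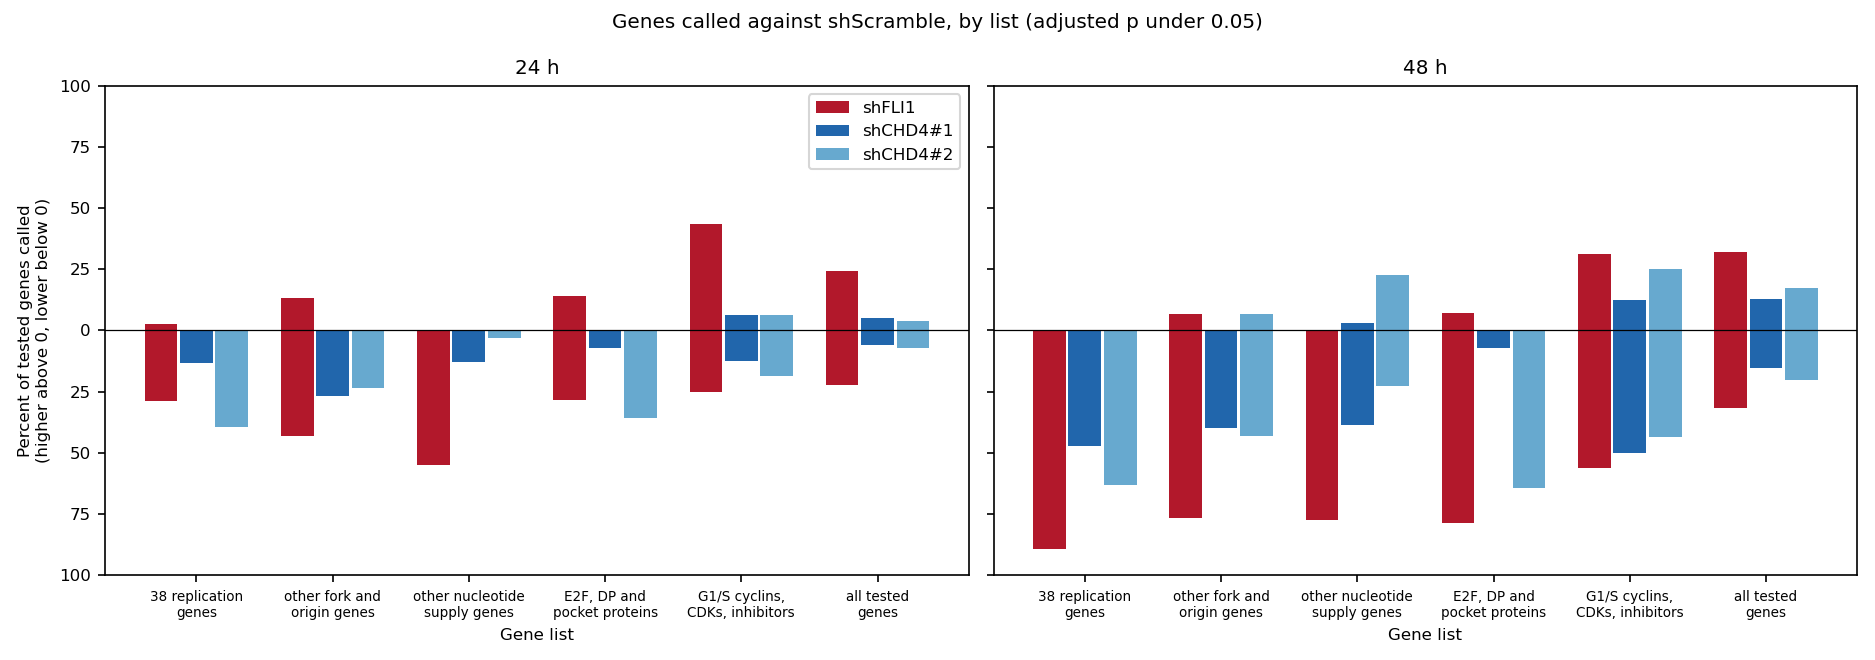
Percent of the tested genes of each list called higher (above 0) or lower (below 0) against shScramble with shFLI1, shCHD4#1 and shCHD4#2 at 24 h (left) and 48 h (right), with all tested genes as the last group. With shFLI1 at 48 h the bar of the 38 replication genes reaches 89.5% lower, against 31.7% of all genes.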

How the data were processed

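RNA was sequenced in 28 libraries. Per the submitters' processing notes, reads were checked with FastQC 0.11.7, aligned to GRCh38 with HISAT2 2.1.0, handled with SAMtools 1.7, counted with featureCounts 1.6.0 and compared with DESeq2 1.34.0. No source used here gives the strand setting of the counting. The deposited table holds a signal per gene and library, read counts that the authors divided by 1 size factor per library. Its values were whole multiples of 1 step per library for 99.9 to 100.0% of genes (tolerance 0.02 reads), which gave the reads per library. The authors' deposited tables of comparisons hold log2 fold changes and adjusted p-values; of these, the one titled as shFLI1 at 24 h was left out because its values are those of a different comparison, and a second copy of the normalised values was left out too.

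Values of the 21025 of 35488 genes that averaged 10 or more across libraries were fitted on log2(value + 1) with limma 3.58.1 (trend) in R 4.3.3. Fold changes are on this scale, which understates those of low genes. Groups of 1 time were fitted together (14 libraries), the differences between times over all 28, with two-sided tests and Benjamini-Hochberg adjustment within each comparison at 0.05. "Library division" is the split by processed pseudogene share. It was one of the alternatives, with quantile normalisation, median centring, edgeR 4.0.16 and DESeq2 1.42.0 on recovered reads, pseudocounts, filters, fewer groups, a replicate block, the authors' table and each library left out. The statistics were tested on simulated data. Same-numbered libraries of shScramble and the CHD4 hairpins deviated together (correlations 0.119 to 0.708 over 18 pairs), and those with shFLI1 did not (-0.150 to 0.103). The library division follows the numbers in the same groups, so these correlations cannot tell pairing from the division. The labels do not say what a number marks, and the replicate block is an alternative only. Exon lengths and overlaps came from GENCODE 29 and promoters from RefSeq. Genes given per library are the 8 (shFLI1) or 4 (other comparisons) with the smallest adjusted p, those that moved against the majority, the MCM genes and, of other lists, the 3 with the smallest adjusted p; others were added after their values were seen. The genes and lists were chosen with earlier results of these data known.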

Additional observations from a re-analysis of the deposited data

Results flagged for a closer look

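The effect of shFLI1 at 48 h was not that at 24 h in 26 of the 38 genes, by the test of the difference itself with limma over all 28 libraries. Among the genes given in full that did so were E2F2, with a difference of log2 fold changes of -1.70, ORC1 with -1.66, RRM2 with -1.65 and CDC45 with -1.49. DTL differed by -1.11, POLA2 by -1.10, RRM1 by -1.08 and RFC4 by -0.97. In these 8 genes the log2 fold change was lower at 48 h than at 24 h, and RRM1, the subunit of ribonucleotide reductase that did not pass at 24 h, differed almost as much as POLA2.

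In shScramble at 48 h, replicate 2 stood below the other replicates for POLA2, the accessory subunit of polymerase alpha, with 1440.05 normalised counts, against 1684.58 to 1779.45 in the others. The 3 shFLI1 libraries lay below it. It was the sole such case among 76 groups of 5 libraries, fewer than the about 1 in 20 that chance gives. The low value was not particular to POLA2. Replicate 2 was also the lowest shScramble library at 48 h for RRM2, MCM10, CDC45 and E2F2, among others, and the highest for MCM2 and MCM3. It belongs to the 12 libraries that stood apart by processed pseudogene share.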

How the results depend on the processing

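Over the 38 genes in every comparison and alternative, called values kept direction and side of the threshold in 3522 of 3884, lost the threshold in 362 and turned direction in 0. Of 6756 values that were not called, 188 gained the threshold and 443 turned direction. The count that fell with shFLI1 at 24 h (11) was 7 with quantile normalisation and 17 with the library division as a term, and 7 to 11 with 1 library left out; the count that rose (1) was 5 with quantile normalisation and 2 with the replicate block or DESeq2. At 48 h the count that fell (34) was 30 to 34 with 1 library left out and 22 in the authors' deposited table. Of the 34 calls, 29 held in every alternative other than that table, and of the 11 at 24 h, 6 did. With shCHD4#1 at 24 h the count (5) was 2 with quantile normalisation or with the compared groups alone, 11 with DESeq2, 12 with the library division, 18 lower and 1 higher with the replicate block without shFLI1 libraries (chosen after seeing the data), 0 in the authors' table, and 1 to 7 with 1 library left out. At 48 h (18) it was 13 to 23 with 1 library left out and 0 in the authors' table. For the smaller fold changes, the authors' adjusted p-values were far larger than those here at like values. RFC4 with shCHD4#1 at 48 h, for example, was at -0.59 there and uncalled. Their test may differ, so the counts from their table are not on a like measure. With shCHD4#2 the count at 24 h (15) was 6 with the compared groups alone, 0 in the authors' table and 4 to 17 with 1 library left out; at 48 h (24) it was 4 in the authors' table and 20 to 27 with 1 library left out, and 1 gene was higher with quantile normalisation, the library division or DESeq2. The fold change with shCHD4#2 differed between the times in 0 to 1 genes. With shFLI1 against the CHD4 hairpins at 24 h, the count of lower genes (3) was 6 with median centring, 5 with the replicate block, 7 with the library division and 2 to 3 with 1 library left out; that of higher genes (9) was 5 with median centring and 5 to 12 with 1 library left out. At 48 h the higher count (2) was 1 with median centring and 1 to 2 with 1 library left out. With shCHD4#1 against shCHD4#2 at 24 h the higher count (3) was 5 with quantile normalisation, 6 with the replicate block or DESeq2, 7 with the library division and 1 to 4 with 1 library left out; at 48 h the lower count (4) was 1 to 3 and the higher count (11) was 7 to 12. The cause of these changes was not tested, and the shares of all genes called are given for the main fit only. Median centring set the median of all genes at -0.11 with shFLI1 at 48 h and at -0.13 against the CHD4 hairpins.

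Of the genes whose values are given in the text, those that turned direction were as follows. With shFLI1 at 24 h MCM4 was at 0.12 with quantile normalisation, 0.0224 with the replicate block and -0.14 to 0.0273 without 1 library, and MCM6 at 0.10 with quantile normalisation, which also put CDC45 at 0.0101 and PCNA at 0.13. Without 1 library PCNA was at -0.15 to 0.0326 and E2F2 at -0.38 to 0.0570. With shCHD4#1 at 24 h quantile normalisation put MCM2 at 0.10 and MCM4 at 0.0184, and MCM2 was at -0.0934 to 0.0160 without 1 library. With shFLI1 at 48 h it put MCM5 at 0.12 and RFC1 at 0.0524, TYMS was at 0.16 with the replicate block, and PRIM2 was at -0.12 with median centring, -0.0868 with the replicate block, -0.0108 with edgeR, -0.00317 with DESeq2 and -0.0726 to 0.11 without 1 library. With shCHD4#1 at 48 h MCM4 was at 0.18 with quantile normalisation, 0.00476 with median centring, 0.0604 with the replicate block with or without shFLI1 libraries, 0.0408 with the library division, 0.0098 with edgeR, 0.0542 in the authors' deposited table and -0.0683 to 0.0446 without 1 library. POLA1 was there at -0.0660 with the replicate block with or without shFLI1 libraries, -0.0827 with the library division, -0.0802 in the authors' deposited table and -0.0995 to 0.0900 without 1 library, and ORC6 at -0.00259 to 0.11. With shCHD4#2 at 48 h CDT1 was at -0.0312 to 0.0573 without 1 library. The replicate block also ended the calls of GINS2 (adjusted p = 0.102) and RFC5 (0.101) with shCHD4#1 at 48 h, of CDC45 (0.211), GINS2 (0.114), MCM10 (0.0641) and RFC3 (0.113) with shCHD4#2 at 48 h, and of TK1 between the hairpins at 48 h (0.0560). It added MCM5 with shCHD4#1 (0.0498) and MCM3 (0.0422) and MCM5 (0.0319) with shCHD4#2 at 24 h. Quantile normalisation ended the calls of DTL, MCM7, POLA1 and POLE with shFLI1 at 24 h and of CDT1, MCM2, MCM6 and TK1 at 48 h. With 3 libraries per knockdown and members' SDs of 0.0919 to 0.196 on the log2 scale, small changes were not resolved. The counts of the other lists of genes were not recomputed under the alternatives.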
